A study of Drosophila melanogaster with 3 samples.

Results

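Peaks of the GFP-tagged zinc finger protein Zif (CG10267) were examined at 4 genes of one cytoskeletal pathway, Abl, ena, Abi and SCAR, which were taken by name from 13945 protein-coding genes. All peak summits inside each gene or within 1 kb of any of its transcription start sites (TSSs) were taken: 12 of the 8630 summits of the authors' final set, which was selected by the irreproducible discovery rate (IDR), 39 summits of the pooled relaxed list, and 42, 35 and 36 summits of the relaxed lists of replicates 1, 2 and 3. The material was whole Drosophila melanogaster embryos of both sexes, collected between 0 and 24 h of development as 3 biological replicates from 1 transgenic line that stably expresses CG10267 fused at its C-terminal end to GFP. DNA bound by the fusion protein was recovered with an antibody to GFP and sequenced (ChIP-seq). The labels give no treatment and no second genotype, and do not name the promoter that drives the transgene. Whole embryos average over all cell types, so the data do not say in which cells a region was occupied. The genes were chosen with the peaks in view and all samples form 1 group, so the values are descriptions and carry no test.

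Zif is a transcription factor known for its part in the polarity of fly neural stem cells. Abl is a cytoplasmic tyrosine kinase that reads guidance and adhesion signals at the cell membrane and directs the actin cytoskeleton during axon growth and epithelial movements of the fly embryo. Its partner Enabled, encoded by ena, binds the growing ends of actin filaments and keeps them elongating, and Abl restrains it. Abi, the Abl interactor, is a subunit of the SCAR (WAVE) complex. In that complex the SCAR protein is held inactive until signals from the membrane release it, and it then switches on the Arp2/3 complex, which starts branched filaments.

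The promoter regions of 3 of the genes and 1 intronic summit are shown because they hold the summits on which the comparison between the genes turns. They were read from the RefSeq Release 6 genome (dm6) and are written 5′ to 3′ on the strand of Abl, Abi or SCAR. Capitals mark matches on either strand to the words TATCGATA, CGATA, GGTCACACT or CAACACT, which are described further on. The Abl sequence (chr3L:16647888-16648187, minus strand) is centred on the promoter summit and ends just upstream of the TSS. The sequence of Abi (chr3R:14122421-14122653, minus strand) is the whole interval between its TSS and that of twf, and that of SCAR (chr2L:10976400-10976699, plus strand) starts beside the TSS of ATPsynG. The intronic sequence (chr3L:16635961-16636060, minus strand) surrounds the weakest Abl summit of the IDR set.
Abl promoter: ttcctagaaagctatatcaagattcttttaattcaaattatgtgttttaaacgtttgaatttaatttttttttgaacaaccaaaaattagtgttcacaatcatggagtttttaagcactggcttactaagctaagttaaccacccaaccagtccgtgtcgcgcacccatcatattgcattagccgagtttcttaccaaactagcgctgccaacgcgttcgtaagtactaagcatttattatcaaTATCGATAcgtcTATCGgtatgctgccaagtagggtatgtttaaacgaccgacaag
Abi and twf promoters: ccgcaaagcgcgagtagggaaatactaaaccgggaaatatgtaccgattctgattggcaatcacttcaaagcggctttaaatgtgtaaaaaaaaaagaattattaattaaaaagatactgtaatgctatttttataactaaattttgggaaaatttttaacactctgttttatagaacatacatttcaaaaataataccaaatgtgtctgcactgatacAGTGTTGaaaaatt
SCAR and ATPsynG promoters: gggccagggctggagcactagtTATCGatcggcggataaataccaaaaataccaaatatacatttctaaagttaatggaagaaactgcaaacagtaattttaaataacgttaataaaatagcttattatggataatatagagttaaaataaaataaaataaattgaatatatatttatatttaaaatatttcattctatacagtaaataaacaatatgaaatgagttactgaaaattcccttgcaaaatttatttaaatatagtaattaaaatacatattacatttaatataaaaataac
Abl intron: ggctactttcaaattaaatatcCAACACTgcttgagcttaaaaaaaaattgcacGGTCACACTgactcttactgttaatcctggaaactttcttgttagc

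The peaks separated the 4 genes. Abl had a very strong peak at its promoter and weaker ones in its first intron. Along an intron, ena had a row of peaks, most of them below the median pooled signal of the IDR set (405). Abi had a single strong peak, and SCAR had weak peaks that did not enter the IDR set. A summit no more than 500 bp from a TSS is called a promoter summit here. Abl, ena and Abi, 3 of the 4 genes, had an IDR promoter summit, as did 41.0% of all protein-coding genes, and when the gene body and 1 kb around each TSS were counted the same 3 genes had an IDR summit, against 47.0%. In the pooled relaxed list all 4 genes had a promoter summit, against 56.3% of protein-coding genes, and a summit in the wider window, against 62.9%. Among the 4315 strongest IDR summits, only those of Abl and Abi remained at a promoter of the 4 genes, against 26.0% of protein-coding genes. When the 8630 strongest peaks of each replicate were taken instead, Abl, ena and Abi had a promoter summit in every replicate and SCAR in none, against 39.6%, 43.7% and 37.8% of protein-coding genes in replicates 1, 2 and 3. The signal of a peak is the value that the authors' peak caller gave, taken to grow with enrichment over the control, and the IDR set ended at a signal of 204. Just inside that limit was an ena summit with a signal of 209, at rank 8476 of the pooled list. The strongest SCAR summit, with a signal of 175, lay outside it at rank 9693.

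**Figure D1:**
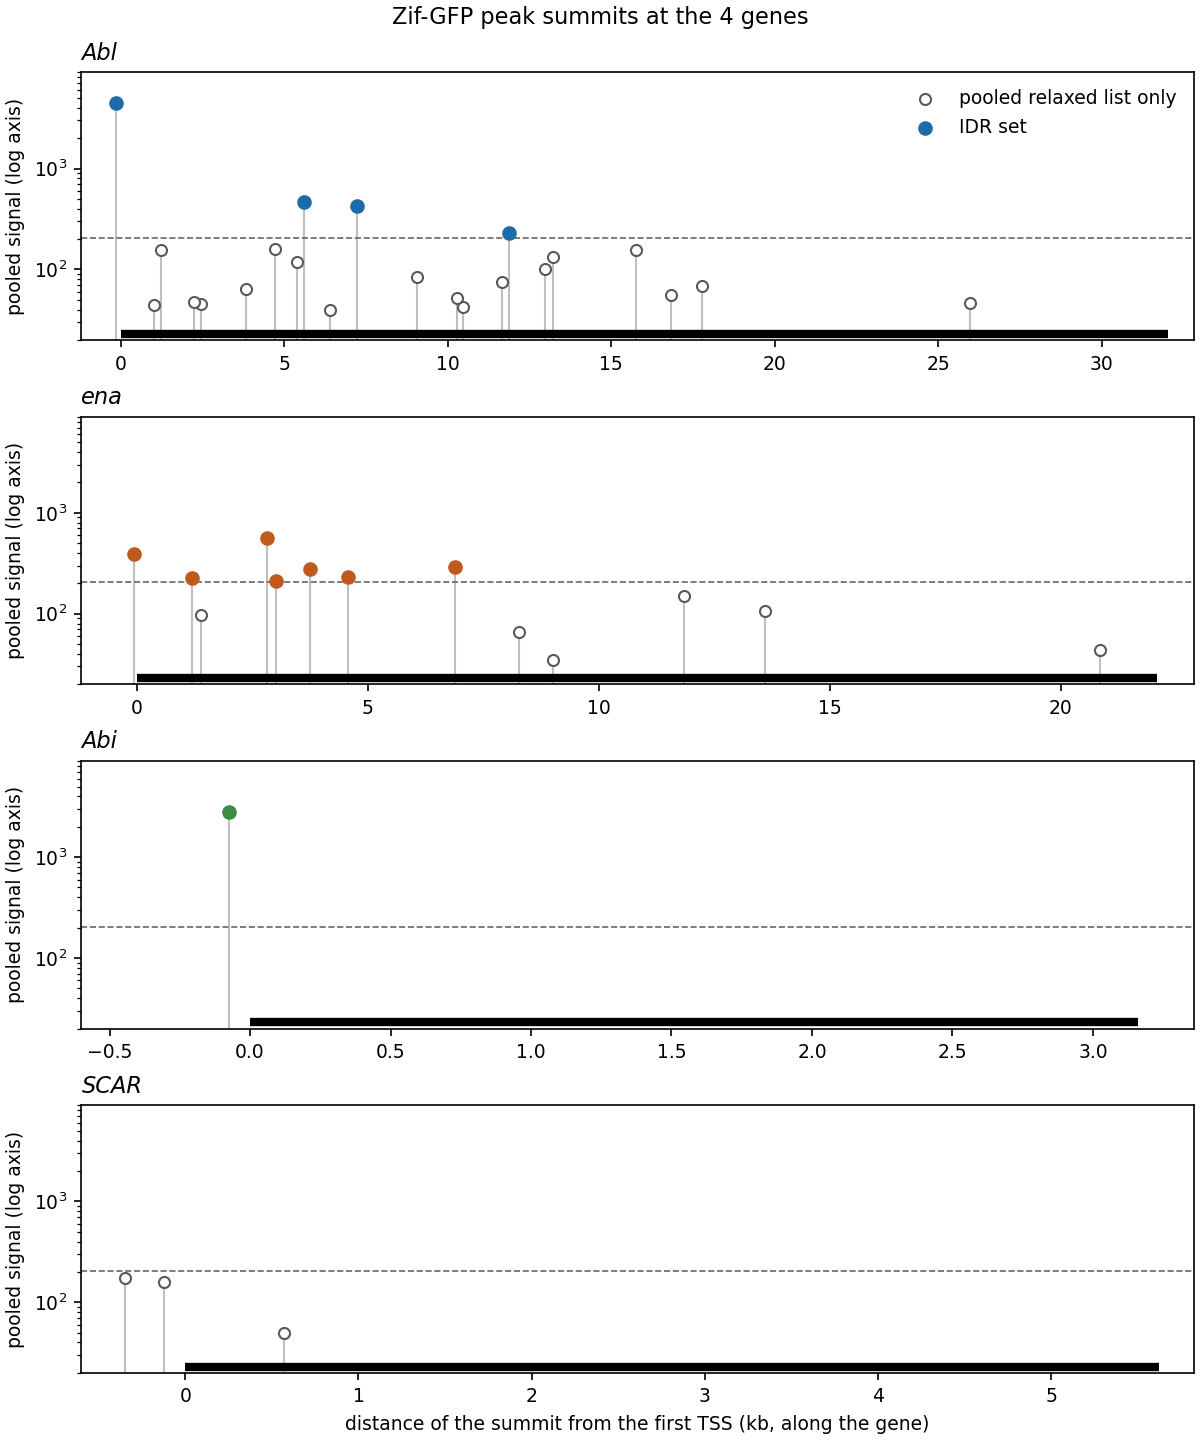
Summits of the pooled list at Abl, ena, Abi and SCAR, with the distance from the first TSS in kb along the gene on the x axis and the pooled signal on a log y axis. Filled points are in the IDR set, open points only in the relaxed list, the black bar is the gene and the dashed line is the lowest signal of the IDR set (204); SCAR has open points only.

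The kinase gene Abl (FBgn0000017, dm6 3L 16615866 to 16647882, minus strand) has 10 annotated transcripts and 1 TSS. Its promoter peak (3L 16647641 to 16648414, summit 16648038) lay 156 bp upstream of the TSS, with a pooled signal of 4452. No TSS of another gene lay within 500 bp of that summit. The peak ranked 31 of the 8630 IDR summits, and 42 of the 5723 genes with an IDR promoter summit had a stronger one. Replicates 1, 2 and 3 gave it signals of 2029.6, 1395 and 1059, and it ranked 26, 35 and 89 of the 30000 summits of those lists. Replicate 3 also listed a further summit 356 bp upstream, with a signal of 169. Replicate 1 listed one at 354 bp with a signal of only 21.4, near the 18.7 at which its list ended. The signals are not scaled between lists, so each was divided by the median of its replicate over the IDR peaks to give a relative signal. This was 10.02, 13.2 and 7.46, a mean of 10.2 ± 2.89 (SD, n = 3). Every replicate therefore had the peak among its strongest, with replicate 2 the highest and replicate 3 the lowest on this scale.

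The other 3 IDR summits of Abl lay in the first intron, which spans 15379 or 17603 bp depending on the transcript, at 5604, 7212 and 11871 bp from the TSS. Their pooled signals were 471, 423 and 229. The first had relative signals of 0.921, 0.949 and 1.16 in replicates 1, 2 and 3 (1.01 ± 0.132, SD, n = 3). The second had 1.02, 1.15 and 0.582 (0.918 ± 0.297). These are levels near the median of the IDR set, far below that of the Abl promoter. The third had 0.546, 0.292 and 0.560 (0.466 ± 0.151) and was lowest in replicate 2, where it ranked 13344. Relaxed peaks continued along the gene. The pooled list held 22 summits at Abl, of which 19 lay in introns, 2 in exons and 1 upstream, and 9 had the maximal −log10 q value of 4.41. Replicates 1, 2 and 3 held 19, 19 and 20 summits, nearly all of them intronic (15, 17 and 18).

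The gene of the filament elongation factor, ena (FBgn0000578, dm6 2R 19141632 to 19163705, plus strand), has 7 transcripts and 2 TSSs. It held 7 IDR summits, more than any other of the 4 genes; 0.617% of all protein-coding genes held 7 or more, and 2.59% held 4 or more, the number at Abl. Of the 1013 protein-coding genes of at least 20 kb, which include ena (22074 bp) and Abl (32017 bp), 8.09% held 7 or more IDR summits and 23.9% held 4 or more, with a median of 1 (interquartile range 0 to 3). The count at ena depended on the replicates. With replicate 1 left out, 3 of the 7 summits overlapped a peak among the strongest 8630 of each of the remaining replicates. Without replicate 2 there were 6 and without replicate 3 there were 3, and 1 of the 7 was among the 4315 strongest. Each count without a replicate holds the summits at 2805 and 3009 bp from the first TSS, whose intervals overlap. Both were matched to the same replicate peaks, and the separate replicate 1 summit at 3004 bp ranked 8850, outside the 8630. The peak at the first TSS (2R 19141389 to 19141701, summit 19141564, 68 bp upstream) had a pooled signal of 392 and rank 4498. Its relative signal was 0.835, 1.62 and 0.584 in replicates 1, 2 and 3 (1.01 ± 0.540, SD, n = 3). Replicate 2 was the highest and replicate 3 the lowest, in the same order as at the Abl promoter. At the second TSS, inside the gene, the pooled list held a weak summit 13 bp downstream with a signal of 107, outside the IDR set.

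The remaining 6 IDR summits of ena lay in 1 intron of 9550 bp, at 1187, 2805, 3009, 3750, 4564 and 6880 bp from the first TSS. The strongest of them (2R 19144286 to 19144597, summit 19144437) had a pooled signal of 566, above that of the ena promoter. It lay 109 bp upstream of the TSS of lncRNA:CR43399, a noncoding RNA gene inside the intron on the same strand, and the summit at 3009 bp lay 95 bp downstream of that TSS. Position alone cannot assign these summits to ena or to the noncoding gene. Relative signals of the strongest were 1.45, 0.758 and 1.36 in replicates 1, 2 and 3 (1.19 ± 0.377, SD, n = 3). The other 5 had pooled signals from 209 to 288, in the lower part of the IDR set (median 405). Of these, the summits at 3750, 4564 and 6880 bp had relative signals of 0.311, 0.242 and 0.339 in replicate 2, against 0.561 to 0.809 in replicate 1 and 0.515 to 0.681 in replicate 3. The summit at 1187 bp did not share that order: its values were 0.519, 0.469 and 0.362 in replicates 1, 2 and 3, lowest in replicate 3. At 3009 bp, the strongest replicate summits within 150 bp gave 0.462, 0.758 and 0.536. The value of replicate 2 there belongs to its single peak at 2873 bp, which also gave the 0.758 at 2805 bp. Replicate 2 thus has no separate value for the order at 3009 bp.

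The balance between promoter and intron was computed within each list, where no scaling is needed. At ena the promoter signal divided by that of the strongest intronic IDR peak was 0.576 in replicate 1, 2.13 in replicate 2, 0.428 in replicate 3 and 0.693 in the pooled list. That intronic peak, the one beside lncRNA:CR43399, was the stronger in replicates 1 and 3 and the promoter peak in replicate 2. The order in replicate 1 and in the pooled list rested on it. Over the strongest of the 4 intronic summits more than 500 bp from any TSS, the ratio was 1.03, 3.45 and 0.858 in replicates 1, 2 and 3 and 1.36 in the pooled list. Over the median of all 6 intronic peaks, where the strongest peak also stands for the summit at 3009 bp in the replicates, it was 1.11, 4.01 and 0.887, with 1.55 in the pooled list. At Abl the ratio to the strongest intronic peak was 9.81, 11.5 and 6.42, with 9.45 in the pooled list, and the promoter led in every replicate. Over the whole IDR set, the median signal of promoter summits over that of the others was 1.22, 2.18 and 1.22 in replicates 1, 2 and 3, so replicate 2 also favoured promoters across the genome. The part of this library-wide shift in the ena values was not tested.

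**Figure D2:**
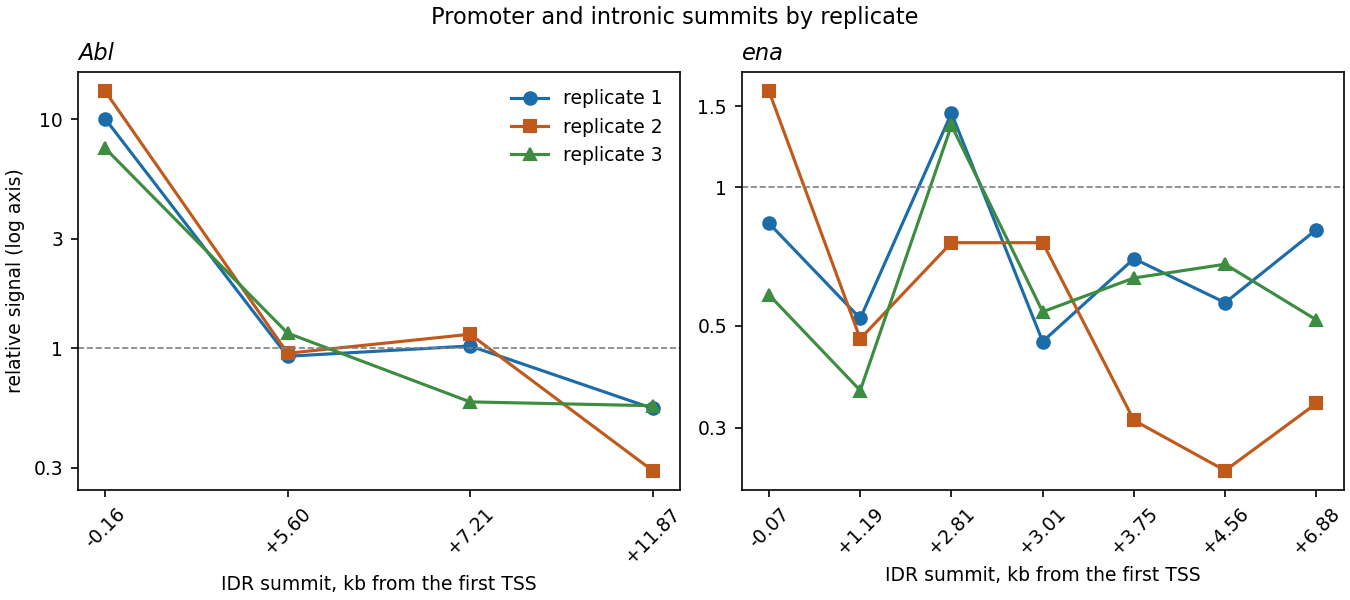
Relative signal (replicate signal over its median at the IDR peaks, log y axis) at each IDR summit of Abl and ena, ordered along the gene by distance from the first TSS in kb; each point is the strongest summit of that replicate within 150 bp. At ena, replicate 2 is highest at the promoter (1.62) and replicates 1 and 3 at the summit beside lncRNA:CR43399 (1.45 and 1.36); in replicate 2 a single peak stands for the summits at 2805 and 3009 bp.

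Abi (FBgn0020510, dm6 3R 14119262 to 14122420, minus strand) is a short gene of 3159 bp with 6 transcripts and TSSs at 14122249 and 14122420. Its single IDR peak (3R 14122105 to 14122832, summit 14122495) lay 75 bp upstream of the outer TSS, with a pooled signal of 2811 and rank 260. Signals of 1104, 965 and 754 were listed in replicates 1, 2 and 3, with ranks of 324, 205 and 315. The relative signal was 5.45, 9.15 and 5.31 (6.64 ± 2.18, SD, n = 3), high in every replicate and highest in replicate 2. The same summit lay 159 bp upstream of twf, on the opposite strand, whose TSS is 234 bp from that of Abi. The twf product, twinfilin, binds actin monomers and caps filament ends, so the peak lies between the promoters of a pair of actin regulators and cannot be assigned to either of them alone. Replicate 3 split the peak and listed a weaker summit, with a signal of 339, at 241 bp upstream of Abi, beside the twf TSS. Within Abi itself the pooled list held no summit, and replicate 1 held 2 weak exonic summits with signals of 24.5 and 25.9.

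SCAR (FBgn0041781, dm6 2L 10976772 to 10982395, plus strand), the gene of the Arp2/3 activator, had no IDR summit. The pooled relaxed list held 3 summits, at 348 and 123 bp upstream of the TSS and at 572 bp downstream in an intron. Their signals were 175, 159.9 and 49.7. The upstream pair had the maximal −log10 q value and ranked 9693 and 10390 in the pooled list. The stronger of them lay 25 bp upstream of ATPsynG, which encodes a subunit of the mitochondrial ATP synthase and starts 373 bp away on the opposite strand. Strongest signals over this peak were 95.0, 40.6 and 54.4 in replicates 1, 2 and 3, and relative signals were 0.469, 0.384 and 0.383 (0.412 ± 0.0494, SD, n = 3). The value of replicate 3 belongs to its only summit at SCAR, at 103 bp upstream of the TSS. All values were below 1, the median of the IDR peaks. The best rank, 8742 in replicate 1, fell just short of the 8630 strongest peaks of that replicate. Of all protein-coding genes, 15.3% likewise had a promoter summit in the relaxed list but none in the IDR set.

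The mean relative signals at the strongest promoter peaks ran from Abl (10.2) through Abi (6.64) and ena (1.01) to SCAR (0.412). Abl and Abi overlapped within 1 SD of their means, 7.34 to 13.1 against 4.46 to 8.81, although Abl was the higher of the pair in each of the 3 replicates. The lowest Abi value, 5.31, was above the highest ena value, 1.62. The lowest ena value, 0.584, was above the highest SCAR value, 0.469, so these neighbours did not overlap in the 3 replicates.

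**Figure D3:**
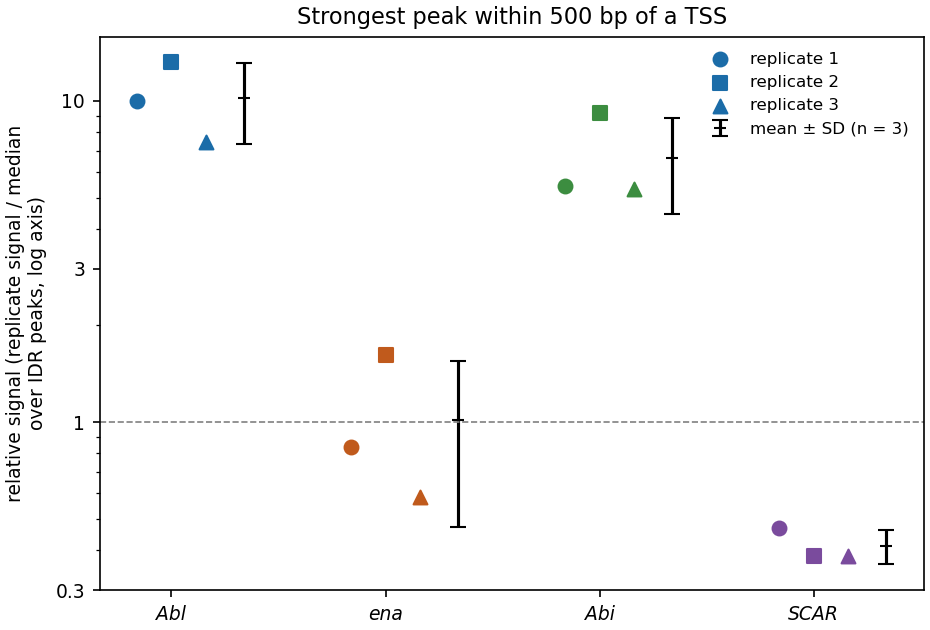
Relative signal at the strongest peak within 500 bp of a TSS for each gene (log y axis); symbols are replicates 1, 2 and 3 and bars are the mean ± SD (n = 3). The values of Abl and Abi overlap, ena lies around 1, the median of the IDR peaks (dashed line), and SCAR lies below it.

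Sequence words were counted in the 300 bases centred on each summit, on both strands, with the share among IDR summits as the background. TATCGATA is the DNA replication-related element of the factor Dref, and CGATA, which it contains, is the core of sites of the insulator protein BEAF-32. At the Abl promoter summit TATCGATA began 61 bp upstream of the TSS, and CGATA matched 3 times, of which 2 lay within TATCGATA and the other was on the opposite strand just downstream. TATCGATA occurred in 15.2% and CGATA in 55.1% of the 5152 windows of IDR promoter summits. TATCGATA lies near the edge of the window: in the central 200 bases it had no match at this summit and CGATA had 1, against 600 and 2320 of the 5152 promoter windows. CGATA was also present at the stronger SCAR summit. CAACACT, a word noticed at the strongest peaks of these data and added for that reason, was present in 53.0% of the windows of the 500 strongest IDR summits and in 10.9% of all 8630. It had a single match in the Abi window, 14 bp upstream of the Abi TSS on the opposite strand, and was not found in the window of the stronger Abl promoter peak.

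The weakest IDR summit of Abl, 11871 bp into the gene, held CAACACT and also GGTCACACT, the core of the promoter element Motif 1 that the zinc finger protein M1BP binds. Away from TSSs, 9 of 3478 IDR windows held GGTCACACT (0.259%) and 3 held both words (0.0863%), this window included. The pair was not chosen in advance, so these shares do not measure how unusual the summit is. GGTCACACT also had a match beginning 12 bp downstream of the SCAR TSS, within the window of the weaker upstream summit but beyond the bases shown. None of the 7 ena windows, of which a pair overlaps, held TATCGATA, CGATA, GGTCACACT or CAACACT. These words occurred in 9.40%, 44.2%, 5.85% and 10.9% of all IDR windows. Away from TSSs the shares were 0.834%, 27.9%, 0.259% and 6.24%. Whether their absence from so few windows is unusual was not tested. Over the 12 IDR windows of the 4 genes, TATAAA, the TATA box word, was present in 7 (48.1% of all IDR windows), GAGAG, a word of the GAGA factor, in 6 (29.0%), and TCAGT, the initiator core, in 4 (46.0%). In windows of 200 bases GAGAG was present in 2 of the 12 (18.3% of all), so its larger share did not hold at that width. A single GAGAG match at ena fell in a pair of overlapping windows and is counted for each. CATCNCTA, the core of Motif 7, and CAGCTG, an E-box, each occurred in 1 window, both at ena (6.62% and 15.8% of all), and CAGCTG in none of the 200-base windows. The G+C content of the 12 windows ran from 27.3% to 38.3% (median 32.3%), against a median of 35.7% over all IDR summits. A match is a description of these letters and not a bound site.

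The rest of the pathway was described with 6 lists by role, 54 genes in all including the 4. An IDR promoter summit was present at 45 of the 54 (83.3%), and at 42 of the 50 other genes (84.0%), against 41.0% of all protein-coding genes. With the TSS distance set to 200 bp or 1 kb, 39 and 45 of the 54 had one, against 33.2% and 44.6% of protein-coding genes, and 30 had one among the 4315 strongest summits, against 26.0%. With replicate 1, 2 or 3 left out, 41, 40 and 40 had one, against 35.3%, 34.9% and 37.1%. The median signal of the strongest promoter peaks was 518, next to 517 for all 5723 genes with such a peak. The listed genes had peaks more often than all protein-coding genes, with signals like those of other genes that had one. The lists were chosen with earlier results of these data known, so the shares do not measure a preference for the pathway. No test of the difference was made. At 23 of the 45 genes the strongest summit lay within 500 bp of the TSS of a further protein-coding gene (51.1%, against 57.9% of all such genes). Among equally many strongest peaks of each replicate, 42, 44 and 42 of the 54 genes had a promoter summit in replicates 1, 2 and 3. The shares of all protein-coding genes were 39.6%, 43.7% and 37.8%.

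Of the 5 SCAR complex genes, 4 had an IDR promoter summit, and SCAR itself was the exception. HSPC300, a small subunit, had a signal of 3420.2 (relative signal 8.08 ± 2.44, SD, n = 3), shared with CG3163. Hem, the Nap1 subunit, had 1541 (3.33 ± 0.755), shared with IleRS, an aminoacyl tRNA synthetase gene. Cyfip, a large subunit, had 489.7 (1.13 ± 0.400), shared with Fkbp39. The genes of a single protein complex therefore ran from 175 to 3420.2 in pooled signal. Of the 8 Arp2/3 genes, 7 had an IDR summit. Arp3 had by far the strongest, 3761 (8.81 ± 2.75), shared with msk, an importin gene. Arpc2 followed with 556, shared with CG10949, and Arpc4 with 518, and Arpc3B had only a relaxed summit of 36.2.

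Of the 16 genes of Abl, ena and their signalling partners, 15 had an IDR promoter summit. After Abl, the strongest were those of dock, an adaptor of the Nck family in axon guidance (1589.7, shared with CG3862), and Src64B, a Src family kinase (1476). Dab, the Disabled adaptor, at 387, and fax, a genetic partner of Abl, at 404 were close to the 392 of ena. The Dab summit was shared with CG43954 and Lasp. Crk, an adaptor gene, had no promoter summit even in the relaxed list. Of the 10 genes of WASP proteins and formins, which are further starters of filaments, 7 had an IDR promoter summit. The strongest were those of the formin genes Fhos (751) and dia (721, shared with Rhau) and of Vrp1 (671, shared with mei-S332), the WASP-binding verprolin. Of the genes without one, spir had 160.2 and form3 83.5 in the relaxed list, and DAAM had no summit there.

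All 9 genes of filament turnover had an IDR promoter summit. The strongest were those of ssh, the phosphatase that activates cofilin (3377, relative signal 8.16 ± 3.23, SD, n = 3), the twf summit shared with Abi (2811), and cib, an actin monomer-binding protein (741). The ssh summit was shared with Nmnat. Of the 6 actin genes, the cytoplasmic actins Act42A (794) and Act5C (575) and the muscle actin Act87E (766) had IDR summits. Act57B had a relaxed summit of 65.7, and Act79B and Act88F, the actins of adult muscles, had none.

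**Figure D4:**
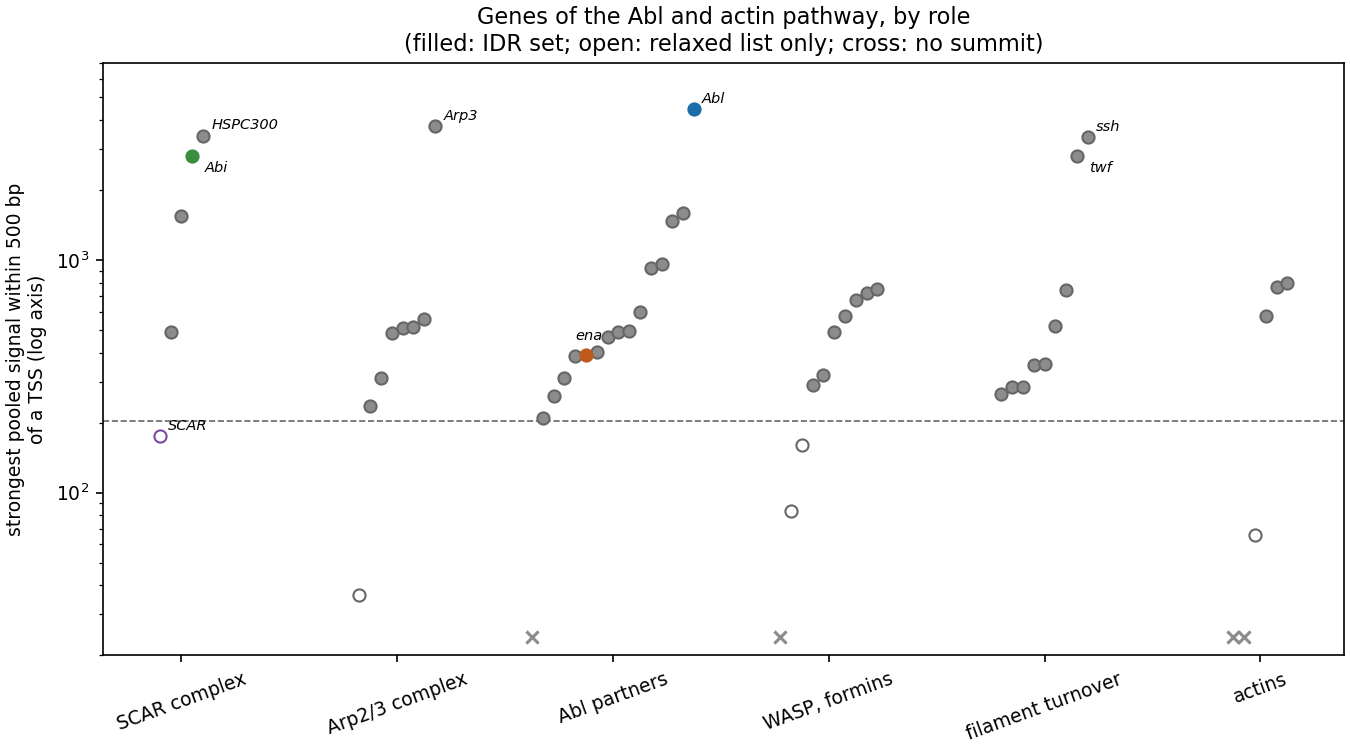
Strongest pooled signal within 500 bp of a TSS (log y axis) for each of the 54 genes, by role; filled points are in the IDR set, open points in the relaxed list only, crosses have no summit, and the dashed line is the lowest signal of the IDR set (204). Abl (4452) and Arp3 (3761) are the highest, and SCAR (175) is the only gene of its complex below the line.

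The genes whose promoter peaks were most like those of Abl, ena and Abi were found among 5636 protein-coding genes by the Euclidean distance of the log2 relative signals over the 3 replicates. For Abl they were RpL23A, a ribosomal protein gene, with relative signals of 9.62, 12.8 and 7.59 (distance 0.08), Neb-cGP (0.17) and hpo, the Hippo kinase gene (0.17). For ena they were TER94, a protein segregase gene, with 0.771, 1.54 and 0.598 (distance 0.14), RanBPM (0.16) and CG5149 (0.19). For Abi they were IntS10, CG32264 and ntc, which share 1 summit with relative signals of 5.64, 8.98 and 5.12 (distance 0.08). With 3 replicates the measure finds genes of like signal and like rise in replicate 2, and says nothing else of them.

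Every library came from the same line, and the lists give no read counts, so the depth of the replicates is unknown. Each relaxed list was limited to 30000 summits, so a gene without a summit was not shown to be unoccupied. The submitters' file records list only replicates 2 and 3 behind the pooled list. At the 10 IDR summits of the 4 genes that overlap no other IDR interval, the pooled signal was 0.928 to 1.09 times the sum over all 3 replicates and 1.55 to 2.65 times that over replicates 2 and 3. No replicate is therefore treated as independent of the IDR set here.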

How the data were processed

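ChIP-seq peak lists of 3 biological replicates of 1 group were used. Per the file records, the authors called relaxed peaks on each library and on pooled alignments against a control, and derived the IDR set. The control library was not analysed here. No source used here names the peak caller, the aligner or the IDR threshold. Deposited values were the signal of each peak, its −log10 q value and the summit offset. The deposited signal was taken to grow with enrichment over the control and is not scaled between lists. Pooled signals were close to the sum over the 3 replicates (median 0.991 times that sum), so the signal is not read as a fold enrichment here. Coordinates are on dm6 and printed 1-based. Gene models were those of Ensembl release 115 without transposable elements; the coordinates of all 4 genes were the same in RefSeq Release 6, which gave the sequences. A summit within 500 bp of a TSS was counted as a promoter summit. The signal of a replicate at a peak was that of its strongest peak overlapping by at least 1 bp. Counting by TSS distance was tested on simulated summits, and word matching on short sequences. The overlap code was run only on a list against itself, which could hardly fail, so overlap matching was not tested. Alternatives were a TSS distance of 200 bp or 1 kb, the 4315 strongest IDR summits, other scalings and overlaps, sequence windows of 200 bases, and leaving out each replicate. The genes named in the pathway lists were, in each list, the 3 with the strongest IDR promoter peaks, the 4 genes included, and all without an IDR summit there; Cyfip, Dab and fax were added after their values were seen. A further list of 6 genes was left out of all counts and is not reported here. The 4 genes, the lists and the words were chosen with earlier results of these data known. Python 3.11.15, numpy 2.4.6 and pandas 2.3.3 were used.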

Additional observations from a re-analysis of the deposited data

How the results depend on the processing

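The settings tried for the number of IDR summits in each gene could only remove summits, so the count of 0 at SCAR was fixed in advance. The strongest peaks of each replicate alone could have given SCAR a promoter summit, and did not. Abl kept 3 or 4 of its 4 summits and Abi its 1 among the 4315 strongest and with each replicate left out. With the gene body alone counted, 2 of the 4 genes had an IDR summit, since that of Abi lies outside the gene. The relative signals of Abl, ena and Abi moved by less than 1 SD. With 3 replicates, leaving 1 out cannot move a mean by more, so this does not measure stability. Scaling to the strongest peaks of each list gave 10.7, 1.06 and 6.94. At ena, 1 of 7 IDR summits was among the 4315 strongest, and 3 to 6 remained supported when a replicate was left out. For support, an IDR summit had to overlap one of the 8630 strongest peaks of both other replicates. The count was 3 without replicate 1 and 3 without replicate 3. Each count holds the overlapping summits at 2805 and 3009 bp, which were matched to the same replicate peaks. The relative signal of SCAR was 0.285 when the replicate summit had to lie within 150 bp, against 0.412, since replicate 3 has no summit there and was counted as 0, a setting chosen with the data in view. The ratio of the ena promoter to its intronic peaks turned from 0.693 to 1.55 (median of the intronic peaks) or 1.36 (summits away from any TSS) in the pooled list, and from 0.576 to 1.11 or 1.03 in replicate 1; both settings were likewise chosen after seeing the values. In windows of 200 bases, 22 matches of a word with a summit were left of 29, and the TATCGATA match at the Abl promoter was lost. No paired analysis was possible because all samples belong to 1 group. The lists hold no read counts, so what depth limits could not be measured.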
